A study of Papio anubis with 40 samples.

Results

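The 5'-halves described here are named for valine tRNAs whose anticodon is AAC or CAC, and circulate in serum. Nearly all of their reads end too early to show the anticodon. They were chosen as the fragments of 25 to 36 nt whose ID carries the code 79MP9P9N after the length, a code that spells the first 20 bases. Of 58587 distinct fragments with an ID in the series, 508 met this rule, and they held 49243102 of 130892201 counts, or 37.6%. The rule reads only the length and the sequence code, while the group itself was picked with earlier results of these data known.

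The fragments were sequenced from 0.5 mL of serum per draw in 8 olive baboons (Papio anubis) in which endometriosis, the growth of uterine lining outside the uterus, was induced. Month 0 was drawn before menstrual tissue was placed into the peritoneal cavity by laparoscopy, and months 3, 6, 9 and 15 were drawn after it. Every animal gave serum at every month, so the 40 libraries form 5 groups of 8, all labelled as given no treatment; the ages of the animals are not used here. No animals without inoculation are among these libraries, so time since inoculation, age and processing of later draws cannot be told apart.

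A tRNA-half is made when a ribonuclease, of which angiogenin is the best known in mammals, cuts a mature tRNA in or near its anticodon loop. The piece on the 5' side begins at the first base of the tRNA, and its length gives the place of the cut. Such 5' pieces are abundant among the small RNAs of mammalian serum, and in the archaeon Haloferax volcanii a valine tRNA fragment binds the ribosome and lowers translation. In Val-AAC the first anticodon base is edited to inosine, which a reverse transcriptase copies as if it were G, whereas Val-CAC keeps C there.

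The sequences below show the ladder of 3' ends on which the results turn. The capital in each is its last base.
tRF-28-79MP9P9NH50E: gtttccgtagtgtagtggttatcacgtT
tRF-30-79MP9P9NH57S: gtttccgtagtgtagtggttatcacgttcG
tRF-31-79MP9P9NH57SD: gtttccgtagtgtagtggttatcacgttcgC
tRF-32-79MP9P9NH57SJ: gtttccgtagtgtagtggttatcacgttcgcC
tRF-33-79MP9P9NH57SD3: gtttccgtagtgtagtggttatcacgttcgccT
tRF-34-79MP9P9NH57S15: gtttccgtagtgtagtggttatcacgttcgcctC
The next pair shows why both tRNAs are named. The capitals mark bases 34 to 36, the anticodon, as read from cDNA.
tRF-36-79MP9P9NH57S3UD: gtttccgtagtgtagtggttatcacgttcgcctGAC
tRF-36-79MP9P9NH57S36D: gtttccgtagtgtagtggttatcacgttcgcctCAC
The last pair holds the most abundant inner differences, in capitals, within the 31 nt 5'-half.
tRF-31-79MP9P9NHR7SD: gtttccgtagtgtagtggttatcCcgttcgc
tRF-31-79MP9P9NH5ISD: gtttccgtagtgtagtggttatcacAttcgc

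Library totals ran from 198840 counts in PA8001 at month 0 to 6245450 in PA8914 at month 9. Because the counts of a library share one total, a level is relative to all other fragments, and fewer 5'-halves cannot be told apart from more of the other fragments. The month 15 libraries of PA8001 and PA8003 and the month 0 library of PA8001 stood apart: the 5'-halves held 13.9%, 5.14% and 8.84% of their counts, against 23.1% to 58.7% in the other 37. Intervals and floors below cover counting error only.

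Ends at a single pair of positions accounted for most of the 5'-halves. Fragments of 31 nt, 81 of the 508, held 75.1% of the counts of the 5'-halves, and fragments of 32 nt, 84 in all, held 20.4%. Lengths of 30 and 33 nt added 2.39% and 1.87%. The other 8 lengths lay far lower, between 0.105% at 29 nt and 0.000751% at 27 nt, where the 11 fragments had 370 counts in all. The dominant ends thus followed base 31 or base 32, before the 3 anticodon bases at 34 to 36. Base 33 is a U in nearly all tRNAs and is read here as T.

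**Figure D1:**
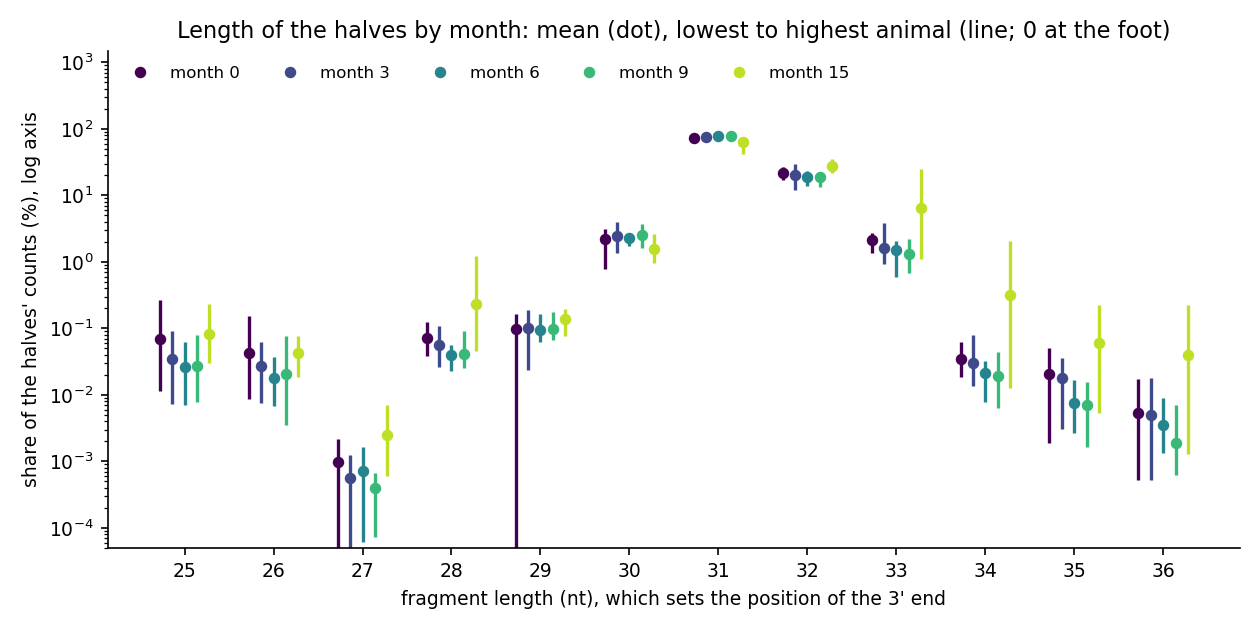
Share of the counts of the 5'-halves at each length from 25 to 36 nt (log axis), by month. Dots are means over 8 animals and lines run from the lowest to the highest animal. Lengths of 31 and 32 nt lead at every month, and at month 15 the dots of 30 and 31 nt lie below, and those of 32 to 36 nt above, the dots of the other months.

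One sequence led at each length. The 31 nt leader, tRF-31-79MP9P9NH57SD, had 26446724 counts, 71.5% of its length, and the 32 nt leader tRF-32-79MP9P9NH57SJ had 7035364, 70.2% of its length. From 25 to 33 nt each leader was the next shorter leader with 1 base added. Fragments without any difference from this ladder numbered 20 and held 71.3% of the counts of the 5'-halves. Another 280 differed at 1 inner base, with 13783754 counts, 30 differed at the last base alone (0.489%), and 178 had a pair of differences (0.208%). Many fragments were rare: 194 had 10 counts or fewer over all libraries, and 94 were seen in all 40 libraries.

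Position 24 carried most of the inner variation. Counting from 1 at the 5' end, with the base of the leading sequence first, A24C made up 21.3% of the counts that covered the position as an inner base, and G26A 2.67%. Among positions 21 to 32 the next were A21C at 0.634%, G30T at 0.627%, G26T at 0.623%, C29T at 0.574% and G26C at 0.551%. Few counts run past positions 33 and 35, and of those T33C made up 6.43% and A35C 2.43%. The table does not say whether a difference lies in a gene copy, in a base change of the RNA or in a reading error, and which of these it is was not tested. In the RefSeq annotation of the Panubis1.0 assembly, 8 genes are named TRNAV-AAC, 12 TRNAV-CAC and 6 TRNAV-UAC. Which copies gave the reads was not analysed here.

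The share of A24C was steady across animals and months. Its means at months 0, 3, 6, 9 and 15 were 21.4% ± 2.12, 21.9% ± 1.23, 22.8% ± 2.76, 20.6% ± 2.35 and 21.3% ± 1.96 (SD, n = 8 each), and single libraries ran from 18.0% to 26.3%. At month 15 it differed from month 0 by -0.0841 percentage points ± 2.56 (SD), higher in 4 animals and lower in 4. G26A stood at 2.61% ± 0.282 at month 15 and 2.75% ± 0.282 at month 0. The difference was -0.139 points ± 0.275 (SD), higher in 1 animal and lower in 7. By length, A24C made up 16.8% of the counts at 30 nt, 21.3% at 31 nt, 22.7% at 32 nt and 15.2% at 33 nt. At 35 nt it was 1.79% (119 of 6656 counts) and at 36 nt 2.57% (57 of 2221, 95% Wilson interval 1.99% to 3.31%). These 2 lower values cannot be read as a trend with length. No 5'-half with C at position 24 had G at position 34, and G led there at 35 and 36 nt. All 176 counts with C at position 24 at these lengths had C at position 34.

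Reads that reach the anticodon were a small remainder. The 5'-halves of 34 to 36 nt had 27322 counts, 0.0555% of all, and between 19 and 6703 in a library. At 34 nt the base at position 34 was C in 67.4% of 18445 counts (95% Wilson interval 66.7% to 68.1%), G in 18.1%, A in 9.59% and T in 4.95%. At 35 nt it was G in 76.6% of 6656 counts (75.6% to 77.6%), C in 16.4% and T in 6.63%. At 36 nt it was G in 75.1% of 2221 counts (73.3% to 76.9%), C in 19.7% and T in 4.91%. G, the reading of inosine, thus led where base 34 was an inner base, and C where it was the last base. Readings of the valine anticodons AAC and CAC were thus both present. T at position 34 was rarer, as in tRF-36-79MP9P9NH57S3XD (104 counts), which ends in TAC, and the source of these reads was not tested. The 5'-halves of 25 to 33 nt end too early to show which anticodon they carried.

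Fragments longer than 36 nt that begin with the same 33 bases numbered 147 and had 4801 counts. Of these, 2385 had G at position 34, 2259 had C and 152 had T. Within the 5'-halves, those with C at position 24 never had G at position 34 (0 of 2545 counts at 34 to 36 nt, which allows up to 0.151% by the Wilson interval). This zero cannot be read as a link between the positions, because the table holds few combinations. Every one of the 178 fragments with a pair of differences carries C29T or C25T, and fragments with G or T at position 34 and any further difference number 10, with 99 counts.

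By month, the mean share of counts at 34 to 36 nt that had G at position 34 was 41.7% ± 13.2, 45.1% ± 15.4, 34.04% ± 12.4, 29.7% ± 11.3 and 38.1% ± 14.2 (SD, n = 8 each) at months 0, 3, 6, 9 and 15. The animals spread widely within each month, for example between 14.2% and 60.9% at month 15, so the months overlapped.

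The 5'-halves took about the same part of the serum fragments before inoculation and at the last draw, with a higher mean between. They held 31.5% ± 12.3, 38.2% ± 10.2, 44.3% ± 6.92, 38.8% ± 5.88 and 30.6% ± 14.9 of library counts at months 0, 3, 6, 9 and 15 (SD, n = 8 each). At month 6 the share was 12.8 percentage points ± 10.8 above month 0 (SD), with 6 animals higher and 2 lower. Without PA8001 and PA8003 this difference was 8.91 points ± 9.49. At month 15 the share differed from month 0 by -0.919 points ± 10.0, with 4 animals higher and 4 lower. Such sums over the 5'-halves are given as descriptions, with no test.

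**Figure D2:**
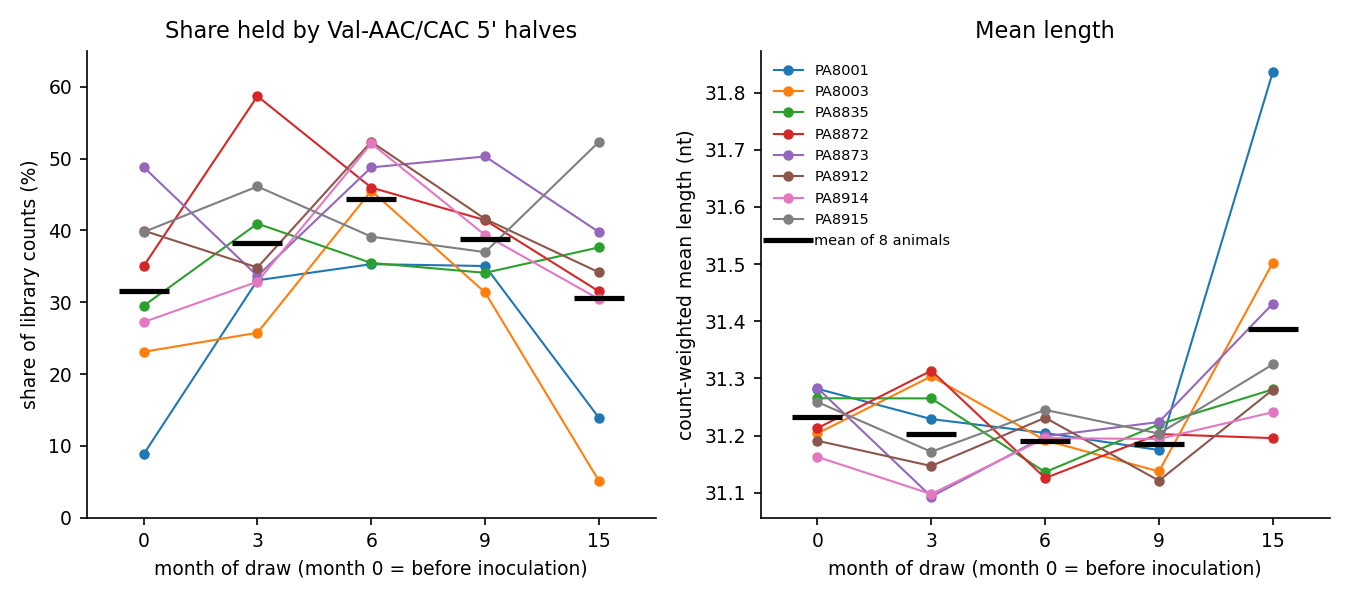
Left: share of library counts held by the 5'-halves (percent) in each of 8 animals by month of draw, with months evenly spaced; right: their count-weighted mean length in nt. Colours mark animals and black bars the mean. The mean share is highest at month 6 (44.3%), and the mean length is highest at month 15 (31.4 nt), where PA8001 reaches 31.8 nt.

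The mean position of the 3' end moved towards longer 5'-halves at month 15 in most animals. The mean length was 31.23 ± 0.0456, 31.20 ± 0.0879, 31.19 ± 0.0415, 31.18 ± 0.0376 and 31.39 ± 0.207 nt at months 0, 3, 6, 9 and 15 (SD, n = 8 each). The 5'-halves at month 15 were 0.154 nt ± 0.188 longer than at month 0 (SD), in 7 of 8 animals. Without PA8001 and PA8003 the difference was 0.0632 nt ± 0.0580, in 5 of 6. At month 6 the mean length differed from month 0 by -0.0414 nt ± 0.0618 (SD), with 6 of 8 animals shorter. Mean shares at each length from 25 to 29 nt were also highest at month 15, between 0.00250% at 27 nt and 0.233% at 28 nt. Against month 0 they were higher in 5, 5, 5, 5 and 6 of 8 animals. PA8872 had 1.25% at 28 nt.

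The 31 nt 5'-halves lost share at month 15, and over all animals 32 and 33 nt gained it. At month 15, 31 nt 5'-halves held 41.9% of the counts of the 5'-halves in PA8001, 54.1% in PA8003, 67.3% in PA8835, 74.0% in PA8872, 60.4% in PA8873, 68.9% in PA8912, 73.7% in PA8914 and 67.1% in PA8915. At month 0 the same animals had 70.0%, 74.6%, 70.5%, 76.7%, 69.1%, 75.8%, 78.3% and 71.3%. Month 15 was lower in 8 of 8 animals, although the ranges of the months overlapped, and PA8001 and PA8003 fell furthest. The mean difference was -9.86 percentage points ± 9.35 (SD), and without these 2 animals it was -5.05 points ± 2.32, with 6 of 6 lower.

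The 32 nt 5'-halves moved the other way. Their share was 27.6% ± 4.73 at month 15 and 22.0% ± 3.52 at month 0, a difference of 5.64 points ± 4.01 (SD) with 8 of 8 animals higher. Without PA8001 and PA8003 it was 4.65 points ± 2.31, with 6 of 6 higher. All lengths of 32 to 36 nt together held 34.5% ± 11.3 at month 15 and 24.2% ± 3.92 at month 0, higher in 8 of 8. In the 6 animals other than PA8001 and PA8003 they held 29.2% at month 15 and 23.8% at month 0, a difference of 5.47 points ± 2.98 against 10.3 points ± 9.40 with all animals, higher in 6 of 6.

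At 33 nt the difference rested on single animals. PA8001 had 25.0% of its 5'-halves at 33 nt at month 15 and 2.74% at month 0, and PA8003 had 8.86% and 1.36%. With all animals the month 15 mean was 4.30 points ± 7.82 above month 0, with 5 animals higher and 3 lower. Without these 2 animals the difference was 0.775 points ± 2.01, with 3 higher and 3 lower. The 36 nt 5'-halves were higher in 8 of 8 animals but stayed rare, at 0.0397% ± 0.0766 at month 15 and 0.00534% ± 0.00578 at month 0. PA8001 carried most of that mean, with 0.227% at month 15. Its month 0 share, 0.0171%, is 3 counts. PA8912 had 0.00128% at month 15 and 0.00110% at month 0, so low counts limit the number of animals higher. In the 6 animals other than PA8001 and PA8003 the shares were 0.00866% at month 15 and 0.0035% at month 0, higher in 6 of 6.

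**Figure D3:**
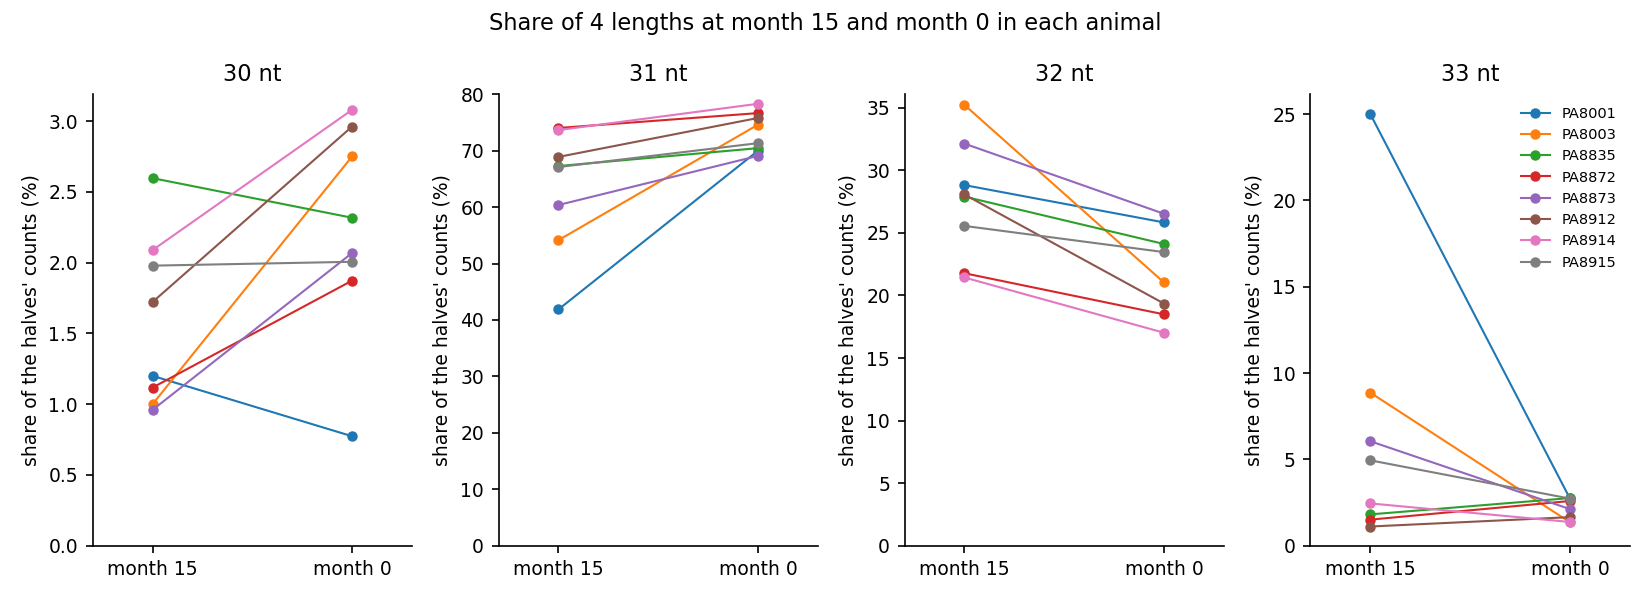
Share of the counts of the 5'-halves (percent) at 30, 31, 32 and 33 nt at month 15 and month 0, with a line for each of 8 animals. All 8 animals lie lower at 31 nt and higher at 32 nt at month 15, while at 33 nt PA8001 (25.0%) and PA8003 (8.86%) lead.

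Set against the other draws after inoculation, month 15 had the same pattern of lengths. The 31 nt share differed by -12.2 points ± 12.1 from month 3 (SD, lower in 7 of 8 animals), by -13.8 points ± 10.6 from month 6 (lower in 8 of 8) and by -13.7 points ± 12.7 from month 9 (lower in 8 of 8). The 32 nt share was 7.61 points ± 7.94 higher than at month 3 (7 of 8), 8.85 points ± 5.18 higher than at month 6 (8 of 8) and 8.80 points ± 6.58 higher than at month 9 (8 of 8). With these 2 animals left out, PA8001 and PA8003, the 31 nt differences were -8.19, -8.84 and -7.42 points, lower in 5, 6 and 6 of 6 animals. The 32 nt differences were then 7.21, 7.52 and 6.51 points, higher in 5, 6 and 6 of 6. These comparisons share the month 15 libraries, so they are not separate observations.

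To test single fragments, edgeR's quasi-likelihood test was fitted over all 2447 fragments that passed a filter on low counts, with month and animal in the model, and p-values were adjusted over all of them by Benjamini-Hochberg. Of the 508 5'-halves 149 passed the filter, among them 19 of 60 at 30 nt, 44 of 81 at 31 nt, 38 of 84 at 32 nt and 23 of 76 at 33 nt. Nested fragments of one tRNA are not independent of each other, so counts of 5'-halves below are not counts of separate events. The 149 were chosen in part through the libraries where they are high, so their counts and medians describe them and no more. Levels are counts-per-million (CPM) after TMM scaling, which sets libraries on a common scale.

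At months 3, 6 and 9 no 5'-half passed against month 0 at an adjusted p under 0.05, and neither did any other fragment (0% of 2447 in each). Unadjusted p-values under 0.05 numbered 4, 31 and 26 of the 149 5'-halves at these months, beside 73, 310 and 201 of all 2447 fragments. DESeq2 and limma-voom also called 0 5'-halves in each, while over all fragments DESeq2 called 0, 17 and 0 and limma-voom none. Without the filter edgeR called 0, 2 and 1 of the 508 5'-halves, beside 0, 8 and 8 of all 58587 fragments. The log2 fold changes of the 31 nt leader tRF-31-79MP9P9NH57SD were 0.47 ± 0.327, 0.62 ± 0.326 and 0.69 ± 0.334 (SE, adjusted p 0.999, 0.437 and 0.582 by edgeR), above 0 in 5, 6 and 6 of 8 animals. The smallest p-values belonged to rarer forms. At month 3 tRF-30-79MP9P9NHR7Y, with A24C and C29T, had a log2 fold change of 0.98 ± 0.366 (SE, adjusted p 0.999, 8 of 8 animals above 0). At month 6 it had 1.10 ± 0.364 (adjusted p 0.303, 7 of 8). At month 9 tRF-30-79MP9P9NH57Y, with C29T, had 0.83 ± 0.30 (adjusted p 0.582, 8 of 8).

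Over the tested 5'-halves the median log2 fold change against month 0 was 0.32, 0.44 and 0.35 at months 3, 6 and 9, beside 0.10, 0.01 and 0.06 over all 2447 fragments. All 44 tested 5'-halves of 31 nt were above 0 at each of these months, with medians of 0.39, 0.66 and 0.60. The 23 of 33 nt had medians of -0.04, 0.05 and -0.28. None of these values passed the test, and the 3 comparisons share the month 0 libraries, in which PA8001 was lowest. Without the month 0 library of PA8001 the medians over the 151 5'-halves then tested were 0.20, 0.34 and 0.26, beside 0.08, -0.0042 and 0.03 over all fragments. Without PA8001 at any month they were 0.12, 0.31 and 0.24.

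At month 15 against month 0, 1 5'-half rose and none fell, beside 2.37% of all tested fragments called (58 of 2447; 2.21% higher and 0.163% lower). It was tRF-36-79MP9P9NH57S3UD, the 36 nt 5'-half with G at position 34. Its levels at month 15 were 1.21 CPM in the lowest library, 23.0 at the median and 260.9 in the highest, against 1.40, 6.08 and 29.2 CPM at month 0. The ranges overlapped, 7 of 8 animals were higher at month 15, and the highest value of month 15, in PA8001, was followed by 36.8 CPM in PA8872. Its log2 fold change was 2.05 ± 0.550 (SE, adjusted p 0.0404 by edgeR). Depth limits this value, since 3 counts correspond to 0.568 to 7.82 CPM depending on the library, and PA8001 at month 0 held 7.82 CPM, which is 3 counts. Without PA8001 and PA8003 at month 15 it had a log2 fold change of 1.43 and an adjusted p of 0.280, and over the 17 alternative settings the adjusted p ran from 0.00412 to 0.407.

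Next in rank at month 15 against month 0 stood tRF-30-79MP9P9NI57S, a 30 nt 5'-half with C23T, and a 35 nt 5'-half with A35C. The 30 nt 5'-half had a log2 fold change of -1.18 ± 0.346 (SE, adjusted p 0.0554 by edgeR), below 0 in 7 of 8 animals, and did not pass.

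The abundant 5'-halves did not pass at month 15 against month 0. The 31 nt leader tRF-31-79MP9P9NH57SD had 39118, 141633 and 176306 CPM at the lowest, median and highest library of month 15, and 21470, 164993 and 272124 CPM at month 0. Both lowest values are those of PA8001, and the groups overlapped. Its log2 fold change was -0.37 ± 0.324 (SE, adjusted p 0.496 by edgeR), below 0 in 6 of 8 animals. The 32 nt leader tRF-32-79MP9P9NH57SJ had 25842, 54990 and 70895 CPM at month 15 and 7635, 43391 and 103095 CPM at month 0. Its log2 fold change was 0.12 ± 0.324 (adjusted p 0.851). The 33 nt leader tRF-33-79MP9P9NH57SD3 had 2570, 6248 and 22424 CPM at month 15 and 696, 4760 and 7928 CPM at month 0. Its log2 fold change was 0.85 ± 0.445 (adjusted p 0.266), above 0 in 5 of 8 animals. By length, 0 of 19 tested 5'-halves of 30 nt, 0 of 44 of 31 nt, 31 of 38 of 32 nt and 23 of 23 of 33 nt were above 0. These are nested forms, so the signs are not separate observations. Of other abundant 5' fragments of 32 to 36 nt, 36 of 38 of glycine, 28 of 30 of glutamate and 25 of 27 of lysine were above 0. In the related valine sequence it was 21 of 23. At 25 to 31 nt it was 23 of 102, 5 of 49, 30 of 47 and 9 of 25 in the same order.

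**Figure D4:**
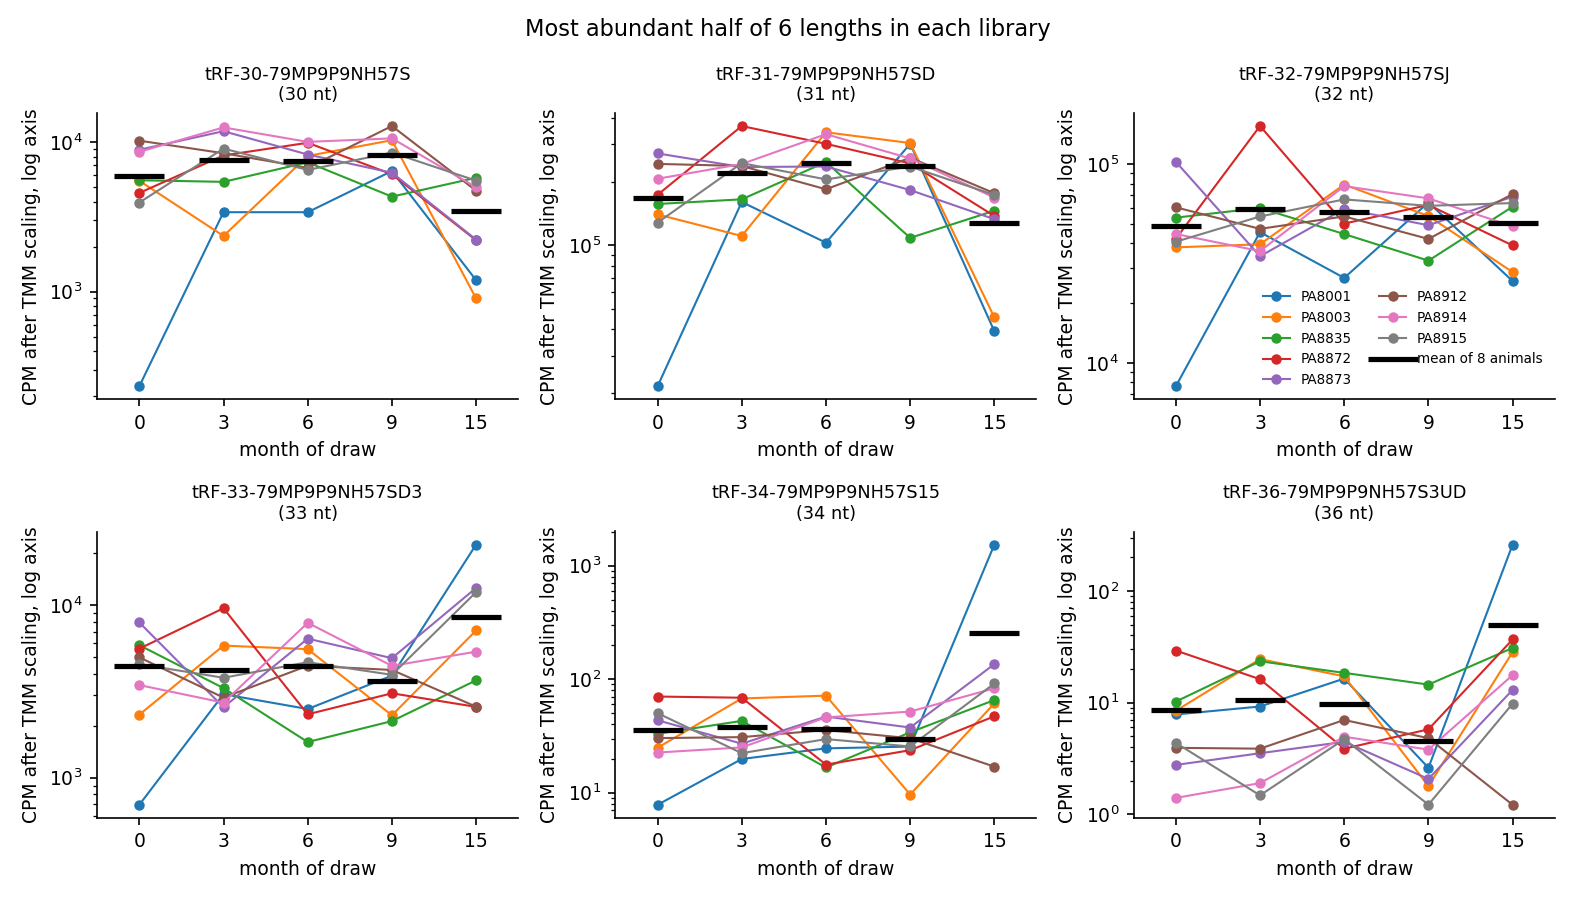
Level (CPM after TMM scaling, log axis) of the most abundant 5'-half at 30, 31, 32, 33, 34 and 36 nt in each of 8 animals by month of draw, with months evenly spaced and black bars for the means. PA8001 is lowest at month 0 from 30 to 34 nt, and at month 15 PA8001 and PA8003 are lowest at 30 and 31 nt while PA8001 is highest from 33 to 36 nt.

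Against the earlier draws after inoculation, more 5'-halves passed, and direction went with length. At month 15 against month 3, 2 5'-halves rose and 21 fell, beside 11.1% of all tested fragments called (7.19% higher and 3.92% lower). Against month 6, 10 rose and 55 fell, beside 26.6% of all (17% higher and 9.52% lower). Against month 9, 24 rose and 56 fell, beside 30.6% of all (18.2% higher and 12.4% lower). With RLE scaling the split against month 3 was 2 higher and 6 lower, and with library totals alone the split against month 9 was 15 higher and 9 lower. Without the animal block the splits against months 3, 6 and 9 were 5 higher and 3 lower, 12 higher and 41 lower, and 30 higher and 33 lower. Under library totals alone the median log2 fold change of all fragments against month 9 was 0.08, and under TMM it was -0.04. Against month 3 it was 0.01 under library totals and -0.11 under TMM. For the tested 5'-halves the medians were -0.05 under library totals and -0.22 under TMM against month 9. Against month 3 they were -0.10 and -0.27. The size of the changes thus depends on the scale chosen.

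The 5'-halves that fell were those of 30 and 31 nt. Against month 6, 17 of 19 tested at 30 nt and 36 of 44 at 31 nt fell, and against month 9, 17 of 19 and 38 of 44. Against month 3 it was 12 of 19 and 9 of 44. Over all tested fragments of any length, 9.52%, 12.4% and 3.92% fell against months 6, 9 and 3. At 32 nt 2 of 38 fell against month 6, 1 against month 9 and none passed against month 3. The other fragments of the same lengths, from all other tRNAs and sequence forms, are given beside these for scale: at 31 nt 61 of 397 fell and 34 rose against month 6, and at 32 nt 3 of 371 fell and 156 rose. The difference between the 5'-halves and these fragments was not tested.

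The 31 nt leader tRF-31-79MP9P9NH57SD was the most abundant 5'-half that fell. At month 15 it had 39118 CPM in PA8001, 45489 in PA8003, 145721 in PA8835, 137545 in PA8872, 132811 in PA8873, 176306 in PA8912, 168146 in PA8914 and 173113 in PA8915. At month 6 the same animals had 102825, 342785, 247762, 302210, 236013, 184074, 335749 and 205034 CPM. Month 15 was lower in 8 of 8 animals, and the groups overlapped only through PA8001 at month 6. The log2 fold change was -1.0 ± 0.329 (SE, adjusted p 0.0237 by edgeR). Against month 9 it was -1.06 ± 0.334 (adjusted p 0.0192, 7 of 8 animals lower), and against month 3 it was -0.84 ± 0.326 (adjusted p 0.0747, 8 of 8 lower). Without PA8001 and PA8003 at month 15 it was -0.70 against month 6 and -0.73 against month 9, with adjusted p 0.201 and 0.169.

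The other abundant forms of 30 and 31 nt behaved alike in direction. The 31 nt 5'-half with A24C, tRF-31-79MP9P9NHR7SD, had a log2 fold change of -1.09 ± 0.303 (SE) against month 6 and -0.91 ± 0.305 against month 9 (adjusted p 0.0103 and 0.0251 by edgeR). With PA8001 and PA8003 left out at month 15 these were -0.77 and -0.57, with adjusted p 0.115 and 0.219. The 30 nt leader tRF-30-79MP9P9NH57S averaged 3449 ± 2019 CPM at month 15, against 7673 ± 3707 at month 3, 7555 ± 2132 at month 6 and 8188 ± 2895 at month 9 (SD, n = 8 each). Its log2 fold changes were -1.18, -1.24 and -1.42 (adjusted p 0.0436, 0.0156 and 0.0120). Without the 2 month 15 libraries these were -0.96, -1.01 and -1.17, with adjusted p 0.265, 0.120 and 0.0906.

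The 32 nt leader tRF-32-79MP9P9NH57SJ was close to level in the same comparisons. It averaged 50884 ± 17969 CPM at month 15, against 59317 ± 40036 at month 3, 57452 ± 17458 at month 6 and 54415 ± 12157 at month 9 (SD, n = 8 each). Its log2 fold changes were -0.22 ± 0.330, -0.20 ± 0.325 and -0.18 ± 0.327 (SE, adjusted p 0.659, 0.659 and 0.701 by edgeR). A miss of the threshold does not show that the level was the same.

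A rarer 31 nt form, tRF-31-79MP9P9NF57SD, with T22G, was named for its small p-values and had 1130 counts in all. Its range at month 15 did not overlap those at months 6 and 9. It was the only named 5'-half without overlap in any comparison, and it was picked by its p-values in these same data. Overlap was checked for the named 5'-halves alone, so no share over all fragments stands beside this. The form had 0.484 to 7.34 CPM at month 15, with a median of 5.22, against 8.90 to 13.2 CPM at month 6 and 7.57 to 15.7 CPM at month 9. It was lower in 8 of 8 animals in both comparisons, with log2 fold changes of -1.34 ± 0.311 and -1.32 ± 0.312 (SE, adjusted p 0.00590 and 0.00788 by edgeR). PA8001 and PA8003 held 0.484 and 0.568 CPM at month 15, which is below the level of 3 counts there. Without these 2 libraries the log2 fold change was -0.98 against month 6 (adjusted p 0.0455) and -0.97 against month 9 (adjusted p 0.0746).

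**Figure D5:**
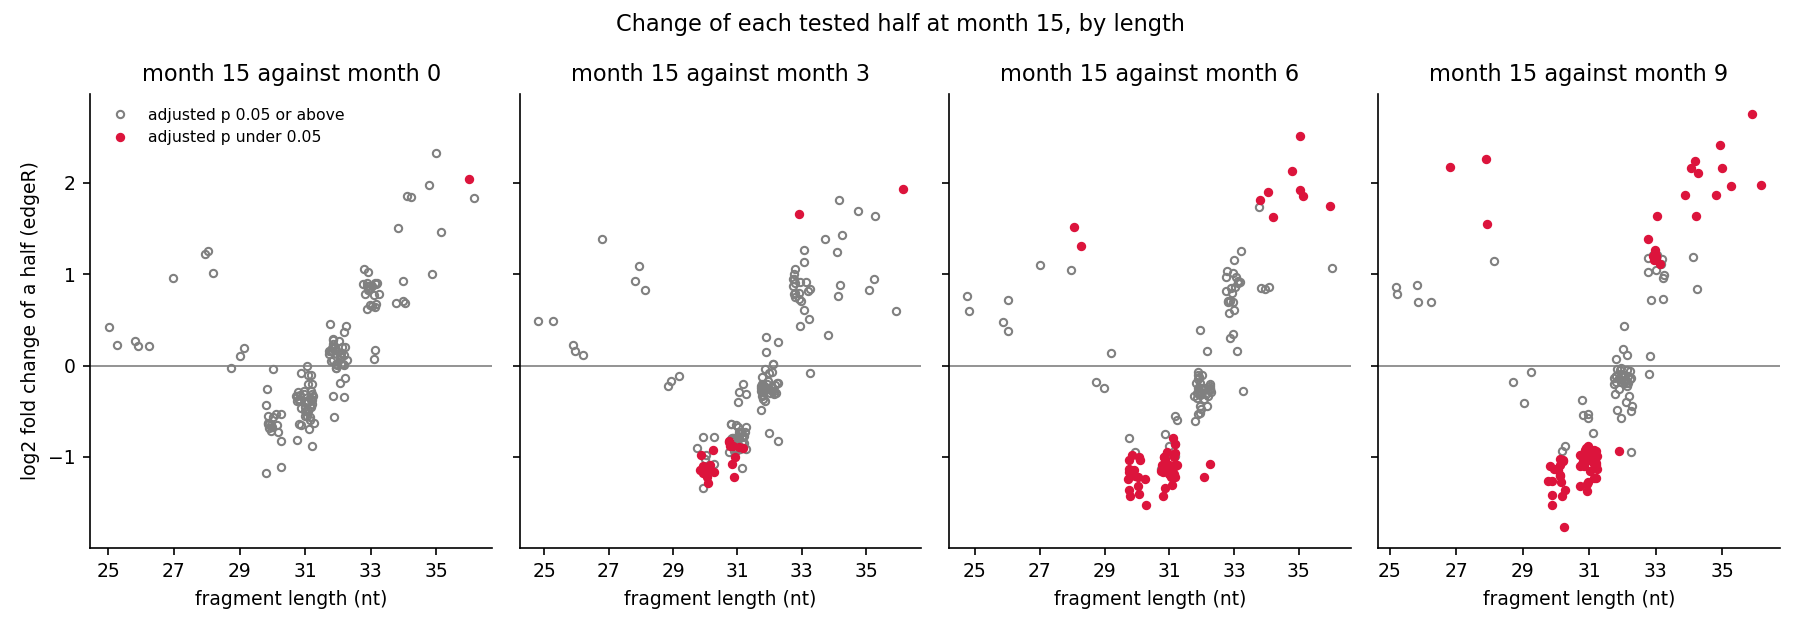
Log2 fold change by edgeR of each tested 5'-half (149) by length in nt, at month 15 against months 0, 3, 6 and 9. Filled red points passed an adjusted p of 0.05. Points at 30 and 31 nt lie below 0, those at 32 nt near 0 and those at 33 to 36 nt mostly above it. Few were tested at 25 to 29 nt (2, 3, 1, 3 and 3). Against months 6 and 9 the points that passed at 30 and 31 nt are all below 0.

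The 5'-halves that rose ended at base 33 or later, or at 27 and 28 nt. Against month 9, 10 of 23 tested at 33 nt rose, 5 of 7 at 34 nt, 4 of 4 at 35 nt and 2 of 2 at 36 nt. Against month 6 it was 0 of 23, 3 of 7, 4 of 4 and 1 of 2. Over all tested fragments 18.2% rose against month 9 and 17% against month 6. Other abundant 5' fragments of 32 to 36 nt rose against month 9 too. These were 27 of 38 of glycine, 17 of 30 of glutamate, 19 of 27 of lysine and 7 of 23 of the related valine sequence, all described below. The 33 nt leader tRF-33-79MP9P9NH57SD3 averaged 8524 ± 6838 CPM at month 15 and 3614 ± 1012 CPM at month 9 (SD, n = 8 each). PA8001, PA8873 and PA8915 stood at 22424, 12579 and 11881 CPM at month 15, and PA8872 and PA8912 at 2570 and 2576 CPM, within the month 9 range. Its log2 fold change was 1.18 ± 0.434 (SE, adjusted p 0.0385 by edgeR), with 6 of 8 animals higher, and 0.58 without PA8001 and PA8003 at month 15 (adjusted p 0.372).

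At 34 nt tRF-34-79MP9P9NH57S15, which ends in C at position 34, had 1538 CPM in PA8001 at month 15 and 17.0 to 135.8 CPM in the other animals, against 9.63 to 51.9 CPM at month 9. Its log2 fold change was 2.16 ± 0.631 (SE, adjusted p 0.0140 by edgeR), with 7 of 8 animals higher. Without the 2 libraries it was 1.14 (adjusted p 0.0910). The 34 nt form with G, tRF-34-79MP9P9NH57S1P, had a log2 fold change of 2.24 ± 0.699 against month 9 (adjusted p 0.0186) and 0.68 ± 0.696 against month 0 (adjusted p 0.556). Without the 2 libraries its adjusted p against month 9 was 0.121. The C and the G reading of the anticodon base thus both passed against month 9 with all libraries, and neither without the 2.

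The 36 nt 5'-half tRF-36-79MP9P9NH57S3UD passed against each of the other 4 months. Its log2 fold changes at month 15 were 1.93 ± 0.545 against month 3, 1.74 ± 0.538 against month 6 and 2.75 ± 0.572 against month 9 (SE, adjusted p 0.0319, 0.0173 and 0.00545 by edgeR), with 7 of 8 animals higher in each. With PA8001 and PA8003 left out at month 15 they were 1.28, 1.03 and 2.14 (adjusted p 0.265, 0.188 and 0.0373). Against month 9 it passed in 17 of 17 alternative settings, and against month 0 in 5 of 17. Its form with C at position 34, tRF-36-79MP9P9NH57S36D, had 1.98 ± 0.579 against month 9 (adjusted p 0.0143, 8 of 8 animals higher), and 1.78 without the 2 libraries (adjusted p 0.0906).

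At 28 nt the values turned on PA8872. The leader tRF-28-79MP9P9NH50E had 2566 CPM in PA8872 at month 15 and 76.1 to 321.9 CPM in the other 7 animals, against 97.1 to 165.8 CPM at month 9, and did not pass (log2 fold change 1.14 ± 0.459, SE, adjusted p 0.0546 by edgeR). Its form with G26A, tRF-28-79MP9P9NH5DE, passed against month 9 (log2 fold change 2.26 ± 0.520, adjusted p 0.00788, 6 of 8 animals higher), with 82.8 CPM in PA8872 and 2.12 to 16.5 CPM in the others at month 15.

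By a joint test of all months, 41 of the 149 tested 5'-halves passed, beside 16.2% of all tested fragments. Of these 34 had 25 to 31 nt and 7 had 32 to 36 nt.

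Most of these calls needed the month 15 libraries of PA8001 and PA8003. Without them edgeR called 0, 0, 3 and 3 5'-halves at month 15 against months 0, 3, 6 and 9, beside 0, 0, 99 and 16 of all 2591 fragments then tested. Against month 6 the 3 were tRF-30-79MP9P9NI57S (log2 fold change -1.29, adjusted p 0.0470), tRF-31-79MP9P9NF57SD and tRF-31-79MP9P9NH57SB, with C31A (-1.05, adjusted p 0.0470), all lower. Against month 9 they were tRF-30-79MP9P9NI57S (-1.67, adjusted p 0.0373), the 36 nt 5'-half tRF-36-79MP9P9NH57S3UD (2.14, adjusted p 0.0373) and tRF-28-79MP9P9NH5DE (2.32, adjusted p 0.0432). Fewer libraries also give less power, and the part of each in the loss was not tested. Unadjusted p-values under 0.05 numbered 10, 31, 63 and 66 of the 150 5'-halves then tested, beside 216, 422, 624 and 700 of the 2591.

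The other abundant 5' fragments of 25 to 36 nt, grouped in the same way by their first 20 bases, give a measure of scale for the split by length. Against month 9, the 5'-halves of 25 to 31 nt had 3 higher and 55 lower of 75 tested, and those of 32 to 36 nt had 21 higher and 1 lower of 74. Fragments of a related valine sequence, code 79MP9PMN, had 1 higher and 6 lower of 25, and 7 higher and 0 lower of 23. The glycine code Q1Q89P9L, which held 37.3% of all counts, had 12 higher and 16 lower of 102, and 27 higher and 0 lower of 38. The glutamate code 87R8WP9N had 1 higher and 2 lower of 49, and 17 higher and 0 lower of 30. The lysine code PS5P4PW3, which held 4.34% of all counts, had 3 higher and 0 lower of 47, and 19 higher and 0 lower of 27. Whether the 5'-halves differ from these was not tested.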

How the data were processed

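Per the labels' protocols, magnetic beads were used to take RNA from serum, the RNA integrity number had to reach 7, and molecular identifiers were added at cDNA synthesis. The authors deposited whole-number counts per distinct fragment sequence and library, with no scaling, and a table of the sequences. Per the submitters' processing notes R 4.5.0, edgeR and limma were used, with no role stated; the aligner, its mismatch rule and any collapsing of molecular identifiers were not given in the sources used here. Lines without a fragment ID (1614 of 60201, all with an unread base, 0.0805% of counts) were left out. Library totals were 198840 to 6245450 counts.

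The test was edgeR 4.0.16 (R 4.3.3): filterByExpr with a minimum count of 10, TMM scaling, month plus animal as a block, robust quasi-likelihood fit over 40 libraries, Benjamini-Hochberg adjustment over 2447 fragments, threshold 0.05. Samples were paired by the animal name in their labels, and deviations of an animal's libraries had a mean correlation of 0.191, against -0.0463 between animals. RLE scaling, library totals, no filter, DESeq2 1.42.0, limma-voom (limma 3.58.1), no block, only the months compared and leaving out libraries or animals were tried. The procedure was tested on simulated data. Named 5'-halves were the leader of each length, the leader for each base at position 34, the 3 smallest p-values per comparison and the 3 most abundant others. Members and lists were chosen with earlier results of these data known.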

Additional observations from a re-analysis of the deposited data

Results flagged for a closer look

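In 8 of the 61 sets of 8 animals checked, a single library lay far from the rest; about 1 in 20 would do so by chance. Of the 8, 4 concern PA8001 before month 15 as the lowest library. At month 0 it had 231.9 CPM of tRF-30-79MP9P9NH57S (next lowest 3950), 21470 CPM of tRF-31-79MP9P9NH57SD (next 127928) and 7635 CPM of tRF-32-79MP9P9NH57SJ (next 38209), and at month 6 it had 3404 CPM of tRF-30-79MP9P9NH57S (next 6532). The month 0 library of PA8001 also had the lowest total, 198840 counts. TMM factors, which divide these CPM, were 1.93 for PA8001 at month 0 and 1.66 at month 6, the highest of each month. The parts of depth and of scaling in these values were not tested. The animal was highest at month 15 for tRF-34-79MP9P9NH57S15, with 1538 CPM (next highest 135.8). PA8003 was lowest for the same 5'-half at month 9, with 9.63 CPM (next 23.7). PA8872 was highest at month 3 for tRF-32-79MP9P9NH57SJ, with 155974 CPM (next 60324), and at month 15 for tRF-28-79MP9P9NH50E, with 2566 CPM (next 321.9).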

How the results depend on the processing

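Counts of 5'-halves called at month 15 depended strongly on the setting. Against month 0 (1 called) they were 0 with library totals alone, limma-voom, only the months compared, without PA8001 and PA8003 at month 15 and without the month 0 library of PA8001, 2 with no filter, 7 with DESeq2, and 6 with no replicate block. Against month 3 (23) they were 8 with RLE scaling, 0 with library totals, 6 with no filter, 49 with DESeq2, 8 with no replicate block, 0 with only the months compared and 0 without the 2 month 15 libraries. Against month 6 (65) they were 25 with no filter and 3 without the 2 libraries. Against month 9 (80) they were 24 with library totals, 28 with no filter, 25 with only the months compared and 3 without the 2 libraries. For any month (41) they were 3 with library totals, 19 with no filter, 62 with DESeq2, 13 with no replicate block and 0 without the 2 libraries. With no filter 2 5'-halves were called at month 6 and 1 at month 9 against month 0. Leaving out each animal in turn gave 0 to 5 calls against month 0, 0 to 30 against month 3 (0 without PA8873 or PA8914), 20 to 67 against month 6 and 19 to 86 against month 9 (fewest without PA8003), 1 to 42 for any month, and 0 at months 3, 6 and 9 against month 0. The cause of these changes was not tested. Leaving out each animal gave differences in share of -2.84 to 1.51 points at month 15 and 10.8 to 14.7 points at month 6 against month 0, and differences in mean length of 0.0968 to 0.178 nt and -0.0530 to -0.0288 nt. Of the log2 fold changes of named 5'-halves, 59 passed and 179 did not. Some of these 5'-halves were named for small p-values in the same comparisons, so these numbers do not describe all fragments. None of the 59 changed sign under an alternative, but a kept sign is not a kept call. When PA8001 and PA8003 were dropped at month 15, 53 of the 59 no longer passed. Low depth limits the 5'-halves of 27 nt and of 34 to 36 nt.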
